A study of Mus musculus with 6 samples.

Results

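The material was the Foxd1+/+ culture of fibroblasts on day 8 of reprogramming, and its members were the 2 arrays titled as Foxd1+/+ at that day, out of 6 arrays in all. Mouse embryonic fibroblasts, connective tissue cells grown out of embryos, carried both normal copies of the forkhead gene Foxd1 and received retroviruses on day 0 for 3 transcription factors: Klf4, Sox2 and Oct4, whose gene symbol is Pou5f1. They grew in medium with 10% foetal bovine serum. Myc was not among the delivered factors. The other 4 arrays, 2 of Foxd1+/- and 2 of Foxd1-/- fibroblasts with the same 3 factors on the same day, served for the choice among probe sets of a gene, the estimate of spread, the ranges over arrays and the check on replicate numbers. No genotype was tested against another. Total RNA was read on 1-colour Affymetrix arrays, and the labels name no sort of the cells, so it was taken as RNA of the whole culture. The labels call the 2 arrays biological replicates without saying whether they came from separate embryos. Each SD below measures the spread between these 2 arrays, which sex-linked genes show were not repeats of the same RNA. The limma p values and SE values instead pool the spread within genotypes over all 6 arrays. Where the replicate number was a block or a term, the difference it shares across genotypes was taken out of that spread. Uninfected fibroblasts and pluripotent cells were not analysed here, so each value is a level on day 8 and not a change from day 0.

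Reprogramming turns a differentiated cell towards the pluripotent state of the early embryo. Fibroblasts are known to lose their mesenchymal programme first and to gain epithelial junctions and keratins in a mesenchymal-to-epithelial transition. Surface and signalling genes of an intermediate stage come on next, and the self-sustaining pluripotency network of Nanog, Esrrb and their partners comes on last, in a minority of cells. In RNA of a bulk culture, few cells with much of a transcript cannot be told apart from many cells with little of it.

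The 2 arrays differed before any list was read. Xist, the RNA that coats an inactive X chromosome, read 514 and 35.2 in replicate 1 and replicate 2. The Y-linked genes Uty, Eif2s3y and Kdm5d read 24.1 and 274, 22.3 and 223, and 25.1 and 147, in the same order. Replicate 1 was thus high for the X-linked RNA and replicate 2 for the Y-linked genes (these 4 genes were chosen after their values were seen). The 2 arrays therefore held RNA of cells of different sex and were not technical repeats. Median intensity over all probe sets was 76.9 and 77.1, and the log2 values correlated with r = 0.99 across genes, which are not independent replicates. The part that this difference between the arrays plays in the values below was not tested.

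Levels were read against 2 marks. The floor of each array was the 95th percentile of 1212 olfactory, pheromone and bitter taste receptor genes, which fibroblasts do not use, and lay at an intensity of 37.3 in replicate 1 and 35.8 in replicate 2. A gene was called near the floor when its mean log2(intensity + 1) over both arrays was at or below the mean floor of 5.23, high when it was among the brightest 25% of the 19938 genes (8.29 or more, about 311 in intensity), and middling otherwise. By these rules 25% of all genes were high, 50.6% middling and 24.4% near the floor. In limma, with 1 mean per genotype over all 6 arrays, 72% of all genes (14351) had a Foxd1+/+ mean above the floor at an adjusted p under 0.05, one-sided. With the replicate number as a block the share was 72.7%, and that fit is given where it changed a member's call. The block takes the difference between replicates 1 and 2 that genotypes share out of the error, and its pairing came from these data. A lower p value with the block therefore does not mean that the 2 Foxd1+/+ arrays agreed on a level. Passing the floor is a low bar. Of 12 skeletal muscle genes, 9 did so, among them the muscle regulator Myod1 (50.1 and 43.8 in replicate 1 and replicate 2). A second floor, chosen after these values were seen, was therefore set at the 90th percentile of 30 muscle, erythroid, liver and gut markers. It stood at 6.37 on the log2 scale, about 81.6 in intensity, and 54% of all genes lay above it. Brightness also depends on each probe set's own affinity and is not scaled to transcript length, so a rank here orders probe sets by brightness, not transcripts by number.

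Genes of translation, of the cytoskeleton and of the matrix were among the 20 brightest. Translation factor Eef1a1 read 11688 and 11106 in replicate 1 and replicate 2, the cytoskeletal actin Actb 11126 and 10977, and the intermediate filament gene Vim, which marks mesenchymal cells, 7254 and 8287. Col1a2 and Sparc, both of the connective tissue matrix, and the secreted Fstl1 also belonged to the 20, beside the chaperone Hspa8 (6726 and 6331), the tetraspanin Cd81 (6124 and 6309) and the cyclin Ccnd2 (5409.8 and 7215). Of 12 measured housekeeping genes 10 were high, and the remaining pair, Gusb and Tbp, were middling (254 and 312, and 250.1 and 239). The single brightest probe set carried the name Baiap2l1 (11606 and 11797), but its annotation lists ribosomal RNA accessions, so that name is uncertain. Like it, Hk1 fell in rank when all of its probe sets were used, to a mean log2 level of 10.80 from 12.58.

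The delivered factors were middling on these arrays, and 1 of them differed sharply between the replicates. Pou5f1, the central factor of pluripotency, read 580.3 and 138, or 8.15 ± 1.46 on the log2 scale (mean ± SD, n = 2). Replicate 1 was 4.19-fold above replicate 2. Klf4 read 261 and 275 (8.07 ± 0.05) and Sox2 163 and 111 (7.08 ± 0.38; SD, n = 2), with the replicates 1.05-fold and 1.46-fold apart. All 3 lay above the floor in limma, at adjusted p values of 1.95e-03, 4.11e-07 and 2.53e-04. Each is read by 1 probe set, and the labels do not state whether that probe set detects the retroviral transcript, the cell's own or both. Of the Myc family, which was not delivered, Myc read 222 and 236, Mycn 255 and 198 and Mycl 94.5 and 113, each middling on both arrays. None of these 6 genes was high by its mean, although Pou5f1 was high in replicate 1 alone.

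Fibroblast matrix genes were at the top of the array. Of 25 measured members 23 were high, where 25% of all genes were, and their median percentile was 97.4. The collagen genes Col1a2, Col1a1 and Col3a1 read 5345 and 6109, 4368 and 6356, and 4507 and 5785 in replicate 1 and replicate 2. Sparc, a matrix glycoprotein, read 5070.2 and 6329, fibronectin Fn1 3968 and 4955 and the proteoglycan Dcn 3779 and 5039. The matrix regulators Thbs1 and Thbs2 gave 4253 and 6949, and 2358 and 2833. Each of these 8 genes was higher in replicate 2 and its 2 arrays were less than 2-fold apart. The only middling members were elastin Eln (309 and 270.4) and osteoglycin Ogn (103 and 328), a small proteoglycan that was 3.15-fold higher in replicate 2. The other 4 of the lowest 6, the collagens Col12a1, Col6a2 and Col5a1 and the crosslinking enzyme Loxl1, still read at least 299.6 on both arrays.

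**Figure D1:**
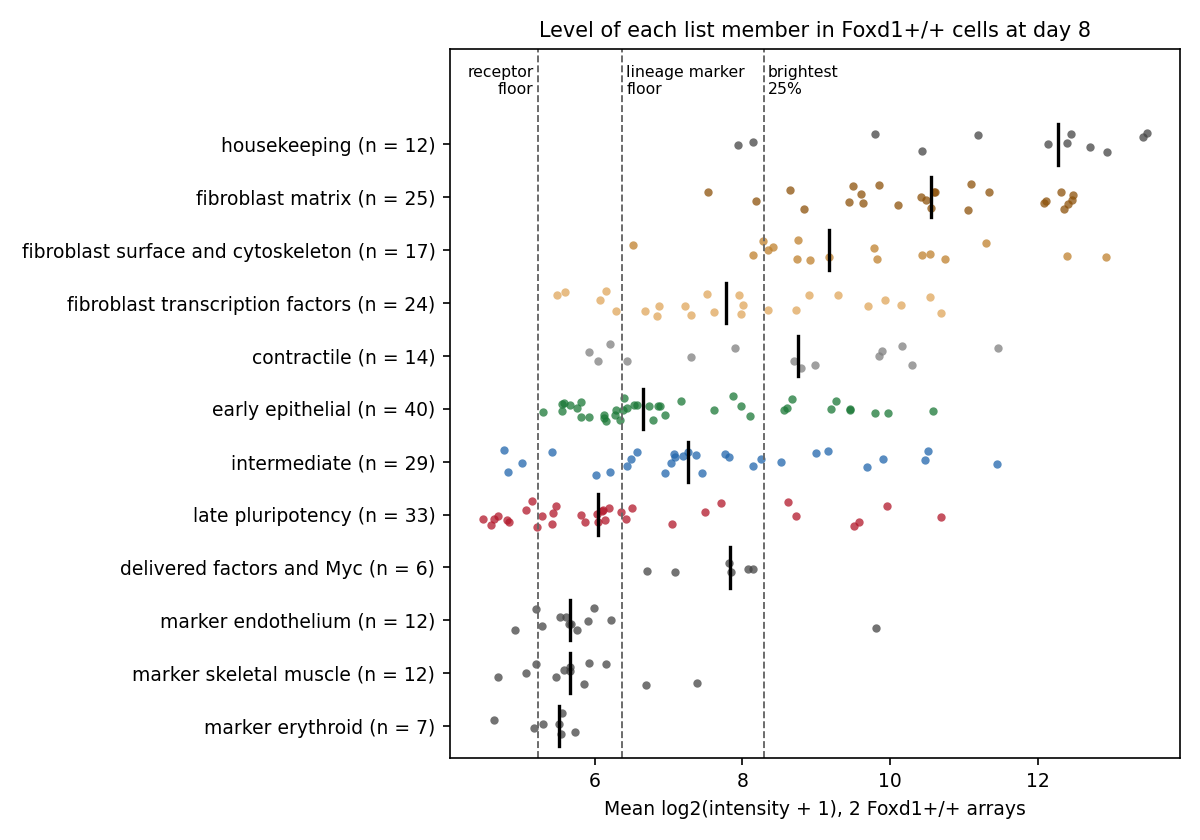
Mean log2(intensity + 1) of each list member over the 2 Foxd1+/+ arrays (1 point per gene, black bar at the list's median, random vertical offset), with dashed lines at the receptor floor, the lineage marker floor and the limit of the brightest 25% of genes. Fibroblast matrix genes sit to the right of all 3 lines except for 2 members, and late pluripotency genes spread from the floor to the high class.

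Surface and cytoskeletal genes of fibroblasts were nearly as bright, with 14 of 17 members high and a median percentile of 87.8. Beside Vim, the galectin Lgals1 read 5212 and 5573, integrin Itgb1 2350.3 and 2688, the mesenchymal cadherin Cdh11 1349.9 and 2168 and the ectonucleotidase Nt5e 1532 and 1454. Ddr2, a collagen receptor, gave 1252 and 1513, the receptor kinase Axl 803 and 1014 and Thy1, a fibroblast surface protein whose early loss is a classical step of reprogramming, 893 and 876. Thy1 thus differed little between the arrays (9.79 ± 0.02; log2 mean ± SD, n = 2). Pdgfra and integrin Itga5 fell just short of the high class (282 and 284, and 305 and 315). The stromal protease Fap was the lowest member at 80.6 and 102. N-cadherin, Cdh2, which is lost as epithelial junctions form, read 475 and 699.9 and was high.

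Transcription factors of the fibroblast programme were lower on the array than its matrix genes, as 9 of 24 were high and the median percentile was 66.4. The brightest were Nfix (1572 and 1733), Foxd1 itself (1907 and 1169), the limb and connective tissue factor Prrx1 (992 and 1301), Twist1 (926 and 1020.3) and Tbx15 (809 and 848). Foxd1 was high on both arrays and 1.63-fold higher in replicate 1. Next came Tcf4 (544 and 719), Meox2 (502 and 452) and Zeb1 (379 and 473), a repressor of epithelial genes. Its relatives in that role were middling, with Snai2 at 229 and 289, Zeb2 at 163 and 232 and Snai1 at 142 and 157. Toward the low end stood Osr2, Tbx5, Foxc2, Msx1, Meox1 and Tcf21, from 87.2 and 118 for Osr2 down to 43.9 and 43.8 for Tcf21. In limma 23 of these 24 factors were above the floor (95.8%, beside 72% of all genes), and the exception was Meox1 (adjusted p = 7.60e-02, or 3.26e-03 with the replicate block). Above the lineage marker floor lay 19 of the 24 (79.2%, beside 54% of all genes).

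Contractile genes, which fibroblasts use when they become myofibroblast-like, ran from the high class to the dim end of the middling one. Of 14 measured genes 8 were high, and 5 were among the brightest 10%. Smooth muscle actin Acta2 read 2316 and 3440.3, tropomyosin Tpm1 1042 and 1512, Cnn2 965 and 1368, Vcl 851 and 1052 and Cald1 763 and 1111. The actin-binding Tagln gave 382 and 662 and the myosin light chain Myl9 309.9 and 634, which was 2.04-fold higher in replicate 2. The smooth muscle actin Actg2 was the eighth high member (341 and 505). Smtn (214 and 266) and Tpm2 (137 and 180.4) were middling. The lowest 4 were Cnn1 and Myh11, Lmod1 and Des. Cnn1 read 66.3 and 110.2, the myosin Myh11 65.7 and 81.0, and Lmod1 59.1 and 71.7, while desmin Des had a mean log2 level of 5.92 ± 0.23 (SD, n = 2). None of the 14 was near the floor, and 13 were higher in replicate 2.

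Early epithelial genes were spread over the whole middle of the array. Of 40 measured members 10 were high (25%, beside 25% of all genes), 30 were middling and none was near the floor. The plakoglobin gene Jup, of cell-cell junctions, read 1523 and 1555, the tight junction scaffold Tjp1 861 and 915 and the junctional adhesion molecule F11r 590.0 and 646. All 3 differed by less than 1.1-fold between the arrays. E-cadherin, Cdh1, the defining adhesion molecule of epithelium, read 681 and 502, keratin Krt8 461 and 359 and Epcam 483 and 313. Among surface protease inhibitors and their partner, Spint2 gave 1079.5 and 933, Spint1 943 and 523 and the protease St14 478 and 300.5. Perp, a desmosome gene, gave 903 and 548. Of these 10 high genes, 7 read higher in replicate 1, and Jup, Tjp1 and F11r read higher in replicate 2.

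The middling members ranged from just under the high class to just above the floor. Occludin Ocln, a transmembrane protein of tight junctions, read 58.7 and 52.0, and the claudins Cldn4, Cldn3, Cldn7 and Cldn6 read 228 and 168, 125 and 122, 73.7 and 81.5, and 49.9 and 42.9. Krt18, the usual partner of Krt8 in simple epithelium, read 84.9 and 82.4, and Krt19 gave 214 and 256. The epithelial splicing regulators Esrp1 and Esrp2 gave 106 and 64.1, and 100.2 and 63.7, and both were higher in replicate 1. Among transcription factors of the list Elf3 read 118 and 71.1, Grhl2 62.2 and 57.2, Grhl1 63.0 and 48.7 and Ovol1 38.4 and 38.5. Grhl3, which the list does not hold, read 334 and 105. Ovol1 was the only member of this list that limma did not call above the floor (adjusted p = 2.22e-01). The 6 lowest members also held the placental cadherin Cdh3, the ligand Bmp7, Marveld3 and the protease Prss8, none of which exceeded 55.2 on either array. Against the lineage marker floor 25 of the 40 members remained above (62.5%, beside 54% of all genes) and 15 did not.

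Repressors such as Snai2 and Zeb1 are known to bind an E-box with the letters CAGGTG in promoters of epithelial genes, and both factors were still above the floor here. RefSeq promoter windows of build GRCm38.p6, from 250 bases before the start of a gene to 50 after it, were matched by symbol for 115 of 182 list members and 15614 of 19938 genes. CAGGTG or its reverse complement lay in 19 of 25 early epithelial promoters (76%), beside 19.2% of all promoters of measured genes. Such sites in epithelial genes were known beforehand, so this share is no independent evidence about the list. The motif lay in 4 of 7 windows of high members and 15 of 18 of middling ones. Only 25 of the 40 measured members had a window, and the high genes Cdh1, Perp and St14 had none. The other lists held it in 9 of 24 late pluripotency (37.5%), 6 of 17 intermediate (35.3%), 3 of 13 fibroblast transcription factor, 2 of 11 contractile, 1 of 14 matrix and 0 of 11 surface windows. The 4 epithelial windows with the most copies (chosen after they were counted) are shown because they carry this feature, beside Jup, the brightest epithelial member, which has none. Each is the 250 bases before the start, 5′ to 3′, with E-boxes and GC boxes (GGGCGG on either strand) in capitals.
Lsr, chr7:30973470-30973719 (- strand): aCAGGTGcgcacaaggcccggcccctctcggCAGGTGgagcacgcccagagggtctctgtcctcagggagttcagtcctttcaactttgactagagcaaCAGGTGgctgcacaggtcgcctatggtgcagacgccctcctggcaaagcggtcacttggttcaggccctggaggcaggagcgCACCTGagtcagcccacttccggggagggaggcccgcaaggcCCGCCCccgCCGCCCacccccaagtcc
Ap1m2, chr9:21312334-21312583 (- strand): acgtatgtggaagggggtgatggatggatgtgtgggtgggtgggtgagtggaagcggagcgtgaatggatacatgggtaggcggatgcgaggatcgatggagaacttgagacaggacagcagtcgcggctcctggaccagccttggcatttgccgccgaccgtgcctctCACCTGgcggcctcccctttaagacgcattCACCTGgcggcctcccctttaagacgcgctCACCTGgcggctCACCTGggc
Spint2, chr7:29281978-29282227 (- strand): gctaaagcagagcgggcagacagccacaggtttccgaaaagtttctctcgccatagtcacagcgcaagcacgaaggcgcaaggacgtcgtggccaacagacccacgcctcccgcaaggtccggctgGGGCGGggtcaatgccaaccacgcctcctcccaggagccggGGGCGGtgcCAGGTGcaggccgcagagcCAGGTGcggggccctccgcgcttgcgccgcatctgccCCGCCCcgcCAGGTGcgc
Crb3, chr17:57061951-57062200 (+ strand): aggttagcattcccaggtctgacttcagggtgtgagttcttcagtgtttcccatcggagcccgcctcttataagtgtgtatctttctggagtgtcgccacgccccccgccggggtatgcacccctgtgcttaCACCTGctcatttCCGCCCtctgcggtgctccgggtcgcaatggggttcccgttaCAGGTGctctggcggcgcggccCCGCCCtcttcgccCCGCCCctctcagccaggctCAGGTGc
Jup, chr11:100397791-100398040 (- strand): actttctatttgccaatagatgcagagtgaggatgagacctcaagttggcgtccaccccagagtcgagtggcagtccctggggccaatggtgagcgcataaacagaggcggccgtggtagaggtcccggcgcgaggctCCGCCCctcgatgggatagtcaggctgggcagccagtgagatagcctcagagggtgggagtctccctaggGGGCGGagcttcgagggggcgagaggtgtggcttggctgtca
Lsr and Ap1m2 held 4 E-boxes each, and Spint2 and Crb3 held 3 each. Lsr, a tricellular junction protein, read 124 and 106, Ap1m2, an epithelial sorting adaptor, 74.2 and 65.8, and the polarity gene Crb3 72.5 and 65.5, all middling, whereas Spint2 was high. A match in these letters is a description of the window and does not show a bound site.

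**Figure D2:**
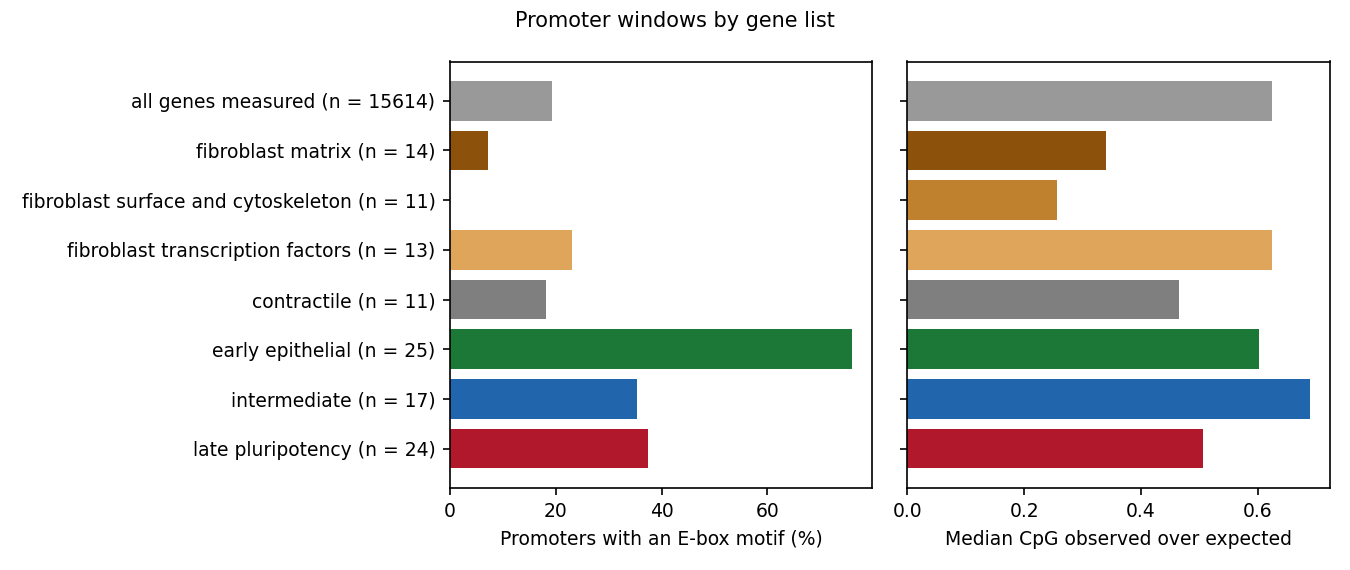
Share of promoter windows with the E-box CAGGTG on either strand (left, percent) and median ratio of observed to expected CpG dinucleotides (right, no unit), for all measured genes with a window and for each list, n windows in brackets. Early epithelial promoters hold the motif in 76% of windows, beside 19.2% of all genes.

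Genes of the intermediate stage were mostly middling, with 8 of 29 high and 3 near the floor, beside 25% and 24.4% of all genes. The brightest were the tetraspanin Cd9 (2926 and 2684) and the surface glycoprotein Cd24a (1863 and 1139.8). Glucose transporter Slc2a3 read 1426 and 1418, the ligand Gdf3 1268 and 729 and the ETS factor Etv5 951 and 709. Alkaline phosphatase Alpl, whose enzyme activity is the classical early stain of reprogramming colonies, read 813 and 402 and was 2.02-fold higher in replicate 1. Upp1 gave 652 and 400.5 and Klf5, a relative of Klf4 in the pluripotency network, 439.7 and 308. All 8 read higher in replicate 1.

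Below them stood regulators that connect this stage to pluripotency. Sall4, a zinc finger partner of Oct4, read 447 and 205, Fbxo15, a reporter gene of early reprogramming, 376 and 211, and the growth factor Fgf4 195 and 156. Tdgf1, a coreceptor for the ligand Nodal, read 363 and 49.6 and was 7.20-fold higher in replicate 1. Replicate 1 was in the high range, and limma called the mean above the floor with the replicate block (adjusted p = 6.69e-06) but not without it (6.17e-02). The Tdgf1 level rested on replicate 1. It stood 0.46 above the floor on the log2 scale with replicate 1 left out and 3.25 with replicate 2 left out. Tet1, an enzyme that oxidises DNA methylation, read 214 and 83.0 and the methyltransferase Dnmt3b 118 and 67.0. The Nodal ligand gene itself was dim at a mean log2 level of 6.01 ± 0.49 (SD, n = 2), higher in replicate 1, and its inhibitors Lefty1 and Lefty2 read 71.4 and 74.5, and 34.2 and 28.9. Fucosyltransferase genes of the stage marker SSEA1 were at the bottom, with Fut4 at 41.0 and 42.9 and Fut9 at 26.9 and 25.6. Lin28b, an RNA-binding protein, read 27.0 and 27.9. Near the floor were Lefty2, Lin28b and Fut9. limma called 25 of the 29 members above the floor (86.2%, beside 72% of all genes), and 26 with the block.

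Late pluripotency genes covered the full range, from the high class almost to the dimmest probe sets of the array. Of 33 measured members 6 were high, 18 middling and 9 near the floor, and their median percentile was 40.8. Near-floor members thus made up 27.3%, beside 24.4% of all genes. The germ cell genes Mael, Ddx4, Dazl, Sycp3 and Tex19.1 were among these 9, beside Tex101, Dppa3, Tcl1 and Otx2. That share is thus largely one of germ cell genes and does not describe pluripotency regulators alone. limma called 20 above the floor (60.6%, beside 72%) and 23 with the replicate block, the added 3 being Esrrb, Prdm14 and Dnmt3l. Of all 33, 11 members lay above the lineage marker floor (33.3%, beside 54% of all genes). Nanog, the homeobox factor that stabilises pluripotency, was among the high genes at 880.0 and 607 (9.52 ± 0.38 on the log2 scale, SD, n = 2; limma adjusted p against the floor 1.48e-06). L1td1, an RNA-binding protein of embryonic stem cells, read 1032 and 952 and Zfp57, which guards imprinted methylation, 827 and 705. The orphan receptor Nr0b1 read 600.3 and 297, 2.02-fold higher in replicate 1. Dppa5a, an RNA-binding protein of early embryos, read 1074 and 143 and was 7.45-fold higher in replicate 1, so that its place in the high class rested on that array. Jam2, a junctional adhesion molecule, was the brightest member at 1130.0 and 2404 and the only 1 of the 33 over 2-fold higher in replicate 2.

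The 18 middling members ran from Klf2 down to Pecam1. Esrrb, an orphan nuclear receptor of the naive network, read 102 and 40.6 and was called above the floor with the replicate block (limma adjusted p = 1.45e-04) but not without it (5.23e-02). The chromatin factor Utf1 gave 145 and 55.6, Dppa2 124 and 52.5 and the nuclear receptor Nr5a2 106 and 49.5, each over 2-fold higher in replicate 1. Of these 4 genes replicate 1 was the high array every time, and replicate 2 lay between 40.6 and 55.6, where the other lineages' markers also lay. Zfp42, the zinc finger marker also known as Rex1, read 42.9 and 41.6, Lin28a 76.4 and 61.0 and Prdm14, a regulator of naive and germ cells, 52.0 and 36.6. Klf2 and Tbx3, which can help sustain the naive state, were the brightest middling members at 239 and 181, and 194 and 167. At the bottom stood Dppa3 (30.4 and 24.9) and Tcl1 (28.2 and 26.0) and the germ cell genes Mael (25.1 and 24.4), Ddx4 (23.6 and 24.1), Dazl (23.0 and 23.4) and Sycp3 (21.5 and 21.4). Dppa2 and Dppa4 are each read by a second, dimmer probe set, at 40.0 and 29.4 for Dppa2 and 28.2 and 22.9 for Dppa4. Their level thus depends on the probe set, as does the difference of over 2-fold in Dppa2.

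**Figure D3:**
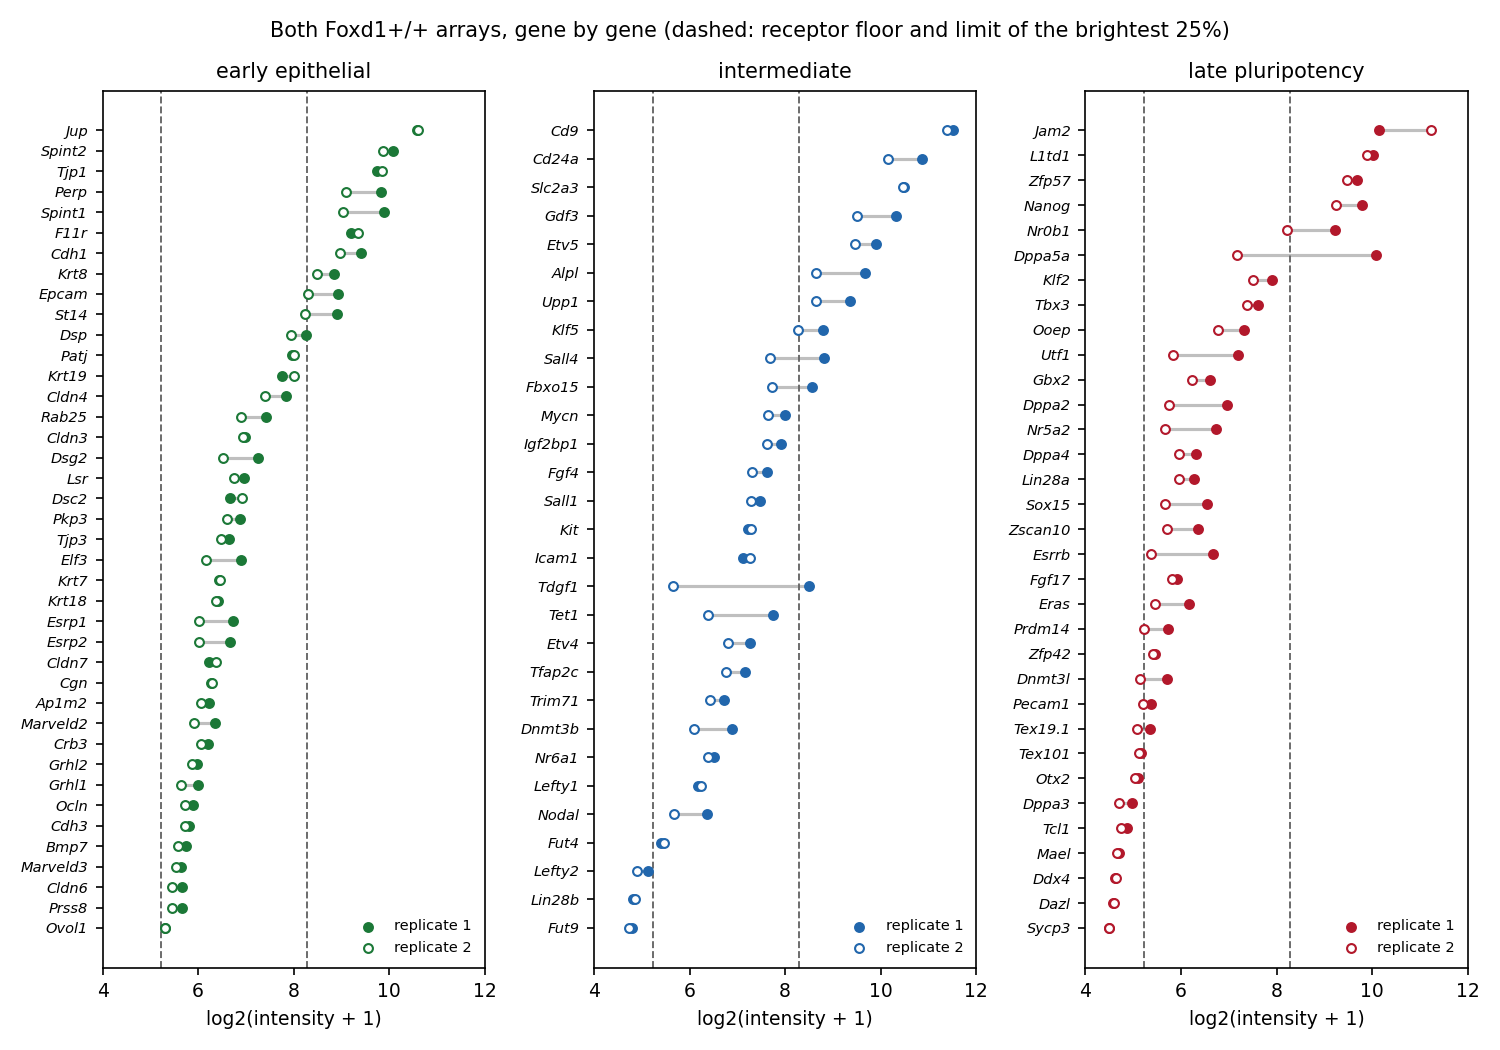
Both arrays for every measured member of the early epithelial, intermediate and late pluripotency lists, as log2(intensity + 1), with genes ordered by their mean (filled points replicate 1, open points replicate 2, grey bar between them). Dashed lines mark the receptor floor at 5.23 and the limit of the brightest 25% at 8.29. Dppa5a and Tdgf1 have the longest bars, and 9 late pluripotency genes lie at or below the floor by their mean.

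The promoter of Nanog is known for a composite element that Sox2 and Oct4, both delivered here, bind side by side. The 250 bases before the first RefSeq start of Nanog are shown for that element, beside those of L1td1, the brightest late pluripotency gene with a window, Sycp3, the dimmest, and Col1a2, the brightest matrix gene. Capitals mark the composite element (CATTGT and ATGCAAA with 1 base between, on either strand), the octamer ATGCAAAT, E-boxes, GC boxes and TATAAA.
Nanog, chr6:122707239-122707488 (+ strand): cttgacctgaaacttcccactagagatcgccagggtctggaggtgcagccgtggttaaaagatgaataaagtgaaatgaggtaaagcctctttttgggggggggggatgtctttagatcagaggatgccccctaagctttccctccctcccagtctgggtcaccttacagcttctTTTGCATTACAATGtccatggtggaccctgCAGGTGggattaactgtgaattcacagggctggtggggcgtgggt
L1td1, chr4:98726504-98726753 (+ strand): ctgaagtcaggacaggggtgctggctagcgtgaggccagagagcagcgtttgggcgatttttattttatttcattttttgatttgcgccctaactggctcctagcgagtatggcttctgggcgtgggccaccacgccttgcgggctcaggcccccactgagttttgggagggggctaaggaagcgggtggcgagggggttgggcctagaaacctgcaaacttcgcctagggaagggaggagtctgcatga
Sycp3, chr10:88459337-88459586 (+ strand): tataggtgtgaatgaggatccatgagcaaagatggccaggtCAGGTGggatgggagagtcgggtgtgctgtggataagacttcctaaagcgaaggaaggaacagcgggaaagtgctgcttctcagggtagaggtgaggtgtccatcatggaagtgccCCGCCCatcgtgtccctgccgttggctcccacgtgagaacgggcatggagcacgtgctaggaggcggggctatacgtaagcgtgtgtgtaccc
Col1a2, chr6:4505368-4505617 (+ strand): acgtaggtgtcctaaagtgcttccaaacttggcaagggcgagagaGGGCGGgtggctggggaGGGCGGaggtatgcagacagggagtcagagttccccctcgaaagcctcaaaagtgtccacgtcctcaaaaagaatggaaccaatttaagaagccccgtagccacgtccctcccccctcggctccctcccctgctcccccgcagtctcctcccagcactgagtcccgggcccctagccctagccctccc
The composite element began 75 bases before the start of Nanog and was found in 1 of 15614 windows of measured genes. It was not among the motifs first planned, and its presence in Nanog was known beforehand. So long an exact spelling is also rare in any gene, so this count is no evidence about Nanog. An exact octamer was found in 268 of them (1.72%) and in 1 of 24 late pluripotency, 1 of 25 early epithelial and 2 of 14 fibroblast matrix windows. Over all genes, CpG dinucleotides were denser where levels were higher, as the median ratio of observed to expected CpG was 0.81 in the high class, 0.66 in the middling class and 0.19 near the floor. The late pluripotency list did not follow that order, with a median of 0.68 over 8 near-floor windows, 0.33 over 12 middling and 0.42 over 4 high ones. Those 8 held the germ cell genes Ddx4 (0.978), Dazl (0.795), Mael (0.78), Sycp3 (0.666) and Tex19.1 (0.575), and Tex101 (0.7). Otx2 and Tcl1 stood at 0.463 and 0.462, so the near-floor median does not describe pluripotency regulators alone. The fibroblast matrix genes, nearly all high, had a median of 0.34 over 14 windows. These medians describe the windows and were not tested.

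Differences between the 2 arrays ran in opposite directions in the fibroblast and pluripotency lists. Replicate 1 was higher in 30 of 33 late pluripotency, 24 of 29 intermediate and 30 of 40 early epithelial members, where 51.5% of all genes were. Their median log2 differences, replicate 1 minus replicate 2, were 0.32, 0.36 and 0.19. In the fibroblast lists replicate 2 was higher in 23 of 25 matrix, 15 of 17 surface and 19 of 24 transcription factor genes, with medians of -0.51, -0.25 and -0.27. Over all genes the median was 0.005, and 96.4% of genes differed by less than 1.5-fold. More than 2-fold apart, either way, were 0.943% of all genes. An excess over 2-fold in replicate 1 was met by 0.411% of all genes, but by 6 of 33 late and 4 of 29 intermediate members, namely Dppa5a, Utf1, Esrrb, Dppa2, Nr5a2 and Nr0b1, and Tdgf1, Tet1, Sall4 and Alpl. The same excess in replicate 2 was met by 0.532% of all genes, and by Jam2, Ogn and Myl9 among the 7 lists. Between the 2 Foxd1+/+ arrays alone these differences have no test.

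The same replicate numbers could be compared in the other genotypes. Of all 19938 genes, 9379 were higher in replicate 1 for Foxd1+/- and 10575 for Foxd1-/-. Late pluripotency genes were higher in replicate 1 in 21 of 33 members for Foxd1+/- and 28 of 33 for Foxd1-/- (medians 0.04 and 0.15). The intermediate genes gave 18 of 29 and 23 of 29, and the matrix genes 4 of 25 and 3 of 25. Early epithelial genes gave 18 of 40 and 30 of 40, and contractile genes 13 of 14 and 7 of 14, so that their Foxd1+/- pair did not share the direction of the Foxd1+/+ pair. Fibroblast surface genes were split in both other pairs, at 9 of 17 and 8 of 17, against 2 of 17 for Foxd1+/+. The fibroblast transcription factors gave 8 of 24 and 6 of 24. A limma fit over all 6 arrays, with a replicate term beside 1 mean per genotype (added after the data were seen), called 4% of all genes higher in replicate 1 and 4.85% higher in replicate 2 at an adjusted p under 0.05. Higher in replicate 1 were 12 of 29 intermediate, 7 of 33 late and 8 of 40 early epithelial members. Higher in replicate 2 were 13 of 25 matrix, 4 of 17 surface and 6 of 24 fibroblast transcription factor members. Called the other way were 0 to 1 members of each of these lists. Tdgf1 read 189 and 48.2 in the Foxd1+/- pair and 192 and 46.4 in the Foxd1-/- pair, and its replicate term was 2.27 ± 0.19 (SE; adjusted p = 8.47e-03) on the log2 scale. Jam2 read 1143 and 2462, and 1200.3 and 2862, with a term of -1.15 ± 0.05 (SE; adjusted p = 5.04e-03). Both genes thus kept their direction in all 3 pairs. Dppa5a also did, at 660.4 and 323, and 774 and 300.2, but its term of 1.76 ± 0.37 (SE; adjusted p = 5.75e-02) missed the threshold. Pou5f1 read 331 and 298, and 348 and 145, with a term of 1.16 ± 0.36 (SE; adjusted p = 1.29e-01). Nanog was higher in replicate 2 of the Foxd1+/- pair (581 and 817), and its term was 0.06 ± 0.20 (SE; adjusted p = 9.16e-01).

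**Figure D4:**
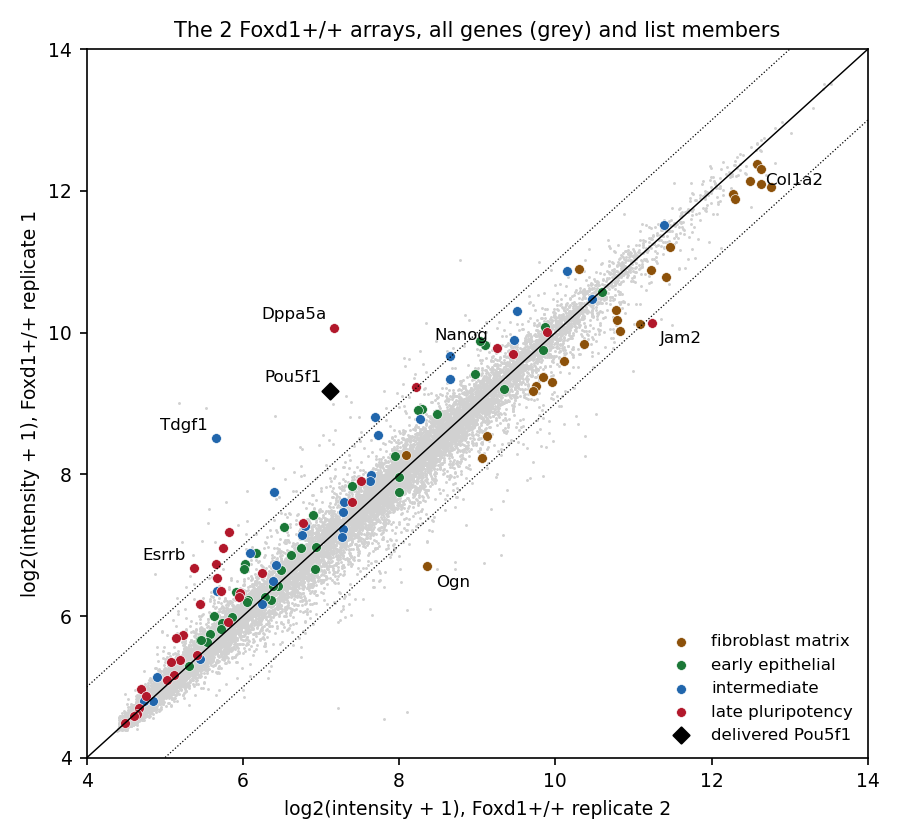
log2(intensity + 1) of every gene in replicate 1 (vertical) against replicate 2 (horizontal), with members of 4 lists in colour and the delivered Pou5f1 as a black diamond. The solid line marks equality and the dotted lines 2-fold differences. Pou5f1, Dppa5a and Tdgf1 lie far above the upper dotted line, and Ogn lies below the lower one.

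Other gene groups also differed between the arrays. Cell cycle genes, 20 of 25 of them high, were higher in replicate 1 in 22 of 25 members (median 0.27). The cyclin Ccnd1, at 3266 and 4294, was an exception, while Rrm2, which makes deoxynucleotides, read 1877 and 1321. Genes of growth arrest and the p53 response, which act as barriers to reprogramming, were high in 9 of 12 members and higher in replicate 2 in 10 (median -0.36). Ccng1, a p53 target, read 4126 and 4922, Cdkn1c 676 and 942 and the Ink4 locus genes Cdkn2a and Cdkn2b 214 and 299.5, and 288 and 435. Interferon response genes were higher in replicate 2 in 18 of 20 members (median -0.76), and 7 of them by over 2-fold. In all 3 genotypes 18 of the 20 were higher in replicate 2, beside 4511 of all 19938 genes. The replicate term called 11 of the 20 higher in replicate 2, beside 4.85% of all genes. Antiviral Oasl2 read 454 and 1230.1, Bst2 352 and 1000.2 and the sensor Ddx58 1147 and 1243, while the ligand gene Ifnb1 stayed near the floor at 25.5 and 25.4. Whether these groups or the sex-linked genes play a part in the lower pluripotency values of replicate 2 was not tested.

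**Figure D5:**
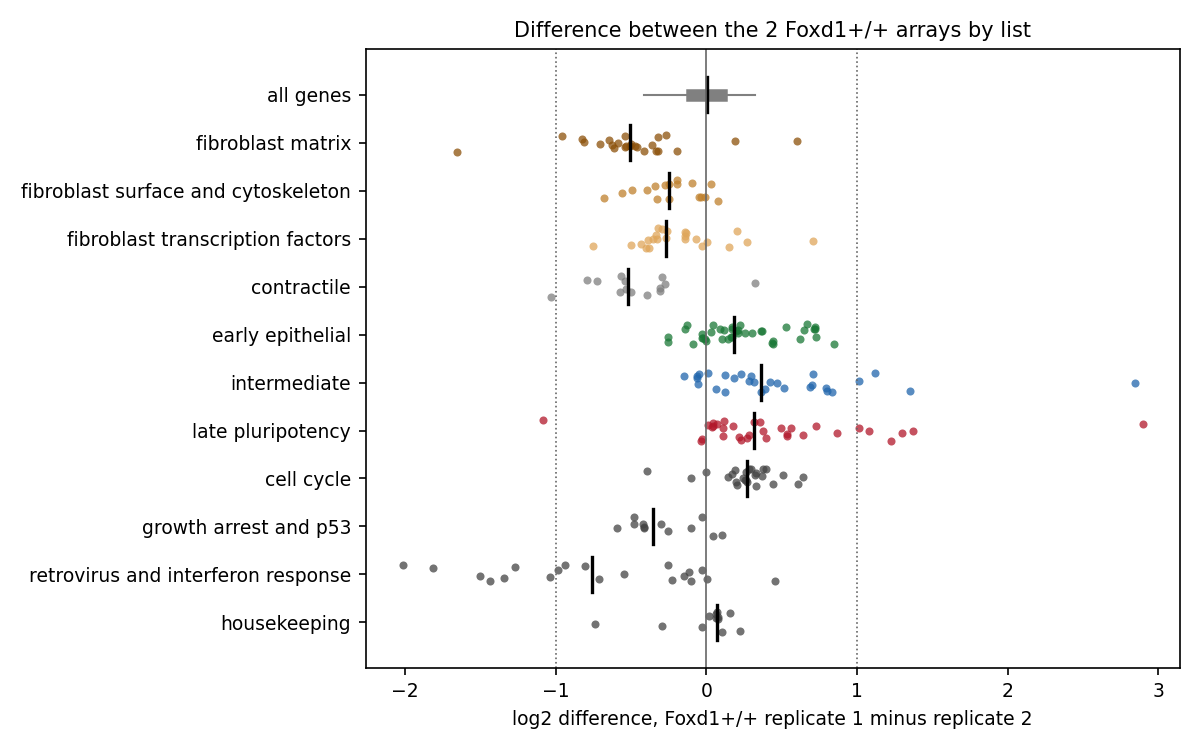
log2 difference of each gene between the 2 Foxd1+/+ arrays, replicate 1 minus replicate 2, by list (1 point per gene, black bar at the median, dotted lines at 2-fold). The top row gives all genes (thick bar 25th to 75th and thin line 5th to 95th percentile). Matrix, contractile and interferon genes lie mostly to the left of 0, and intermediate, late pluripotency and cell cycle genes mostly to the right.

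Markers of other cell types were mostly middling or near the floor. Leukocyte markers were high in 2 of 19 members, the membrane protein Laptm5 (1296 and 934) and lysozyme Lyz2 (677 and 833), while the defining Ptprc (CD45) read 46.4 and 45.3 and the macrophage receptor Csf1r 85.5 and 93.4. In limma 17 of the 19 were above the floor (89.5%, beside 72% of all genes). Above the lineage marker floor lay 11 of the 19 (57.9%, beside 54%), among them C1qc (176 and 191) and Cd68 (174 and 166). Endothelial markers were dim, with Cdh5 at 40.1 and 51.0 and Pecam1 at 40.5 and 35.7, except for the receptor Tek (929.7 and 873). Pecam1, also on the late pluripotency list, was not called above the floor in limma (adjusted p = 2.31e-01). Neuronal Stmn2 and Nefl were high (1646 and 1406, and 1363 and 813), whereas the neuronal factor Neurod1 was near the floor (22.4 and 21.9). No skeletal muscle, erythroid, adipocyte or epidermal marker was high, and of 11 cartilage and bone markers only Alpl was, which is also an intermediate gene. Among epidermal genes, which bear on the epithelial list, Krt5 read 55.9 and 51.3 and the defining factor Trp63 86.2 and 113. In liver and gut, Apoa2 alone was high (484 and 318) and Alb read 90.4 and 129. Leukocyte markers were split between the arrays, 12 of 19 higher in replicate 1 with a median log2 difference of 0.06.

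Across all 6 arrays, each a day 8 culture with the same 3 factors, the median percentiles of 5 of the 7 lists kept to ranges that did not overlap one another. The ranges of the other lists overlapped some of these. The range was 95.9 to 98.6 for matrix genes and 84.5 to 92.4 for surface genes. It was 58.1 to 63.9 for intermediate, 47.4 to 52.0 for early epithelial and 34.5 to 45.5 for late pluripotency genes. The fibroblast transcription factors (63.0 to 68.4) overlapped the intermediate genes, and the contractile genes (75.6 to 87.1) overlapped the surface genes. On each array intermediate genes ranked above early epithelial genes and these above late pluripotency genes by their medians. For the late list, replicate 1 stood above replicate 2 in every genotype, at 45.5 against 34.5 for Foxd1+/+, 42.0 against 37.6 for Foxd1+/-, and 44.1 against 35.4 for Foxd1-/-. Classes taken on each Foxd1+/+ array alone differed for 16 of 182 members of the 7 lists (8.79%), beside 5.77% of all genes. Epcam, St14, Sall4, Fbxo15, Tdgf1, Klf5, Dppa5a, Nr0b1, Eln and Hmga2 were high in replicate 1 and middling in replicate 2. Ogn, Col12a1 and Cav1 went the other way, and Dnmt3l, Pecam1 and Tex19.1 were middling in replicate 1 and near the floor in replicate 2. Nanog, L1td1, Zfp57, Cdh1, Krt8, Cd9, Cd24a and Gdf3 were high on both.

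Some members lay close to a limit. Just below the floor lay the germ cell gene Tex19.1 (39.8 and 32.9) and Tex101 (34.9 and 33.8), and just above it Pecam1 and Ovol1. At the other limit Sall4 and Itga5 fell short, and Hmga2 (356 and 296), an oncofetal chromatin protein, and the caveolar gene Cav1 (283 and 373) were just inside.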

How the data were processed

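Per the labels' protocols, 300 ng of total RNA was labelled by the Affymetrix whole transcript method. The authors' deposited table gives a linear intensity for each of 28856 probe sets on 6 arrays, with no detection call. How these deposited intensity values were background corrected, normalized and summarised is not stated in the labels. Array medians lay between 76.5 and 79.6. The number of arrays limits the precision.

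By the platform annotation 21789 probe sets had 1 symbol, 1621 several and 5446 none listed. The brightest probe set over the 6 arrays was kept for the 999 genes with several, which left 19938 genes, used as log2(intensity + 1). Array floors were subtracted, and limma 3.58.1 (R 4.3.3, lmFit and eBayes) fitted 1 mean per genotype with 3 residual degrees of freedom. The Foxd1+/+ mean was tested against 0, one-sided, with Benjamini-Hochberg adjustment over all genes at 0.05, and the script was tested on simulated data. Promoters with several windows were read at the first listed. A replicate term was fitted on log2 values without the floor, two-sided. Alternatives covered the floor, pseudocount, scaling, probe set, filter, class and fold limits, left-out arrays and the replicate block. Differences between replicates 1 and 2 correlated across genes from genotype to genotype (r = 0.55, 0.73 and 0.73), so equal numbers were taken to pair arrays, from the data and not from the labels.

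The members, 21 gene lists and tests were chosen with earlier results of these data known. The rule for named genes took the delivered factors, the 20 brightest genes, the 8 highest and 6 lowest members of each fibroblast, contractile, epithelial, intermediate and late list with any over 2-fold apart, the 4 highest and 2 lowest of other lists, and defining markers. Any other gene named was chosen after its values were seen.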

Additional observations from a re-analysis of the deposited data

How the results depend on the processing

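Limits that touch these results are the unknown normalization, 2 arrays, and a floor that markers of absent lineages exceed. The count of genes above the floor, 14351, was 14502 with the replicate number as a block, which turned 8 list members from not called to called and 0 the other way, 14262 with the 2 Foxd1+/+ arrays alone, and 13755 to 14311 with 1 array left out. It ranged from 9757 at the lineage marker floor, chosen after seeing the data, to 15468 at the 90th percentile of the receptors. Another pseudocount, quantile normalization, median centring and olfactory receptors alone changed the class of 0 of 182 members, and the median over probe sets of 1. The 4 fibroblast and late members that changed call with the block had means below a higher floor. Relative to the lineage marker floor the log2 level was -0.34 for Esrrb, -0.77 for Meox1, -0.89 for Prdm14 and -0.95 for Dnmt3l, and relative to the 99th percentile -0.21, -0.34 and -0.40 for the last 3. Dnmt3l stood at -0.067 to 0.44 with 1 Foxd1+/+ array left out. Near-floor counts depended on the floor. At the 99th percentile of the receptors they were 2 fibroblast, 7 early epithelial and 14 late pluripotency genes. At the lineage marker floor they were 5, 15 and 22, with 6 intermediate genes. After a filter on genes whose mean was above the floor, 0 intermediate and 0 late genes were left near it, by construction. With high meaning the brightest 10%, 5 early epithelial and 5 intermediate genes were high, and 5 contractile. With 1 Foxd1+/+ array left out, high members numbered 8 to 10 early epithelial, 7 to 11 intermediate, 4 to 6 late and 45 to 46 fibroblast, and near-floor late members 8 to 11. Genes over 2-fold apart between the 2 arrays numbered 188, and 724 passed 1.5-fold. Of genes above the lineage marker floor on both arrays, 16 of 22 early epithelial and 9 of 10 late members were higher in replicate 1. In the Foxd1+/- and Foxd1-/- pairs, fibroblast members higher in replicate 1 numbered 21 and 17 of 66, and early epithelial members 18 and 30 of 40. All genes gave 9379 and 10575 of 19938.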

Other observations

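Whole gene families were also read on the same 2 arrays (chosen after seeing the values). Of 48 keratin genes only Krt8 was high, and 18 were near the floor. Of 23 claudin genes only Cldn11 was high (328 and 559.8 in replicate 1 and replicate 2), and 9 were near the floor. Among 44 collagen genes 13 were high, among them the basement membrane chains Col4a1 (1046 and 1219.6) and Col4a2 (1201 and 1416). Of 23 cadherin genes Cdh11, Cdh13, Cdh1 and Cdh2 were high, so that the epithelial Cdh1 stood in the same class as 3 others. Among 19 Sox genes Sox11 (1337 and 1391), Sox21 (1032 and 1138), Sox4 (379 and 583) and Sox13 (381 and 304) were high, while the delivered Sox2 was middling. In the Klf family, 17 genes, Klf3 (1053 and 976) and Klf6 (566 and 721) were the brightest, and the delivered Klf4 was middling. Background shares were 25% high and 24.4% near the floor.

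Outside the lists, some of the largest differences between the 2 arrays (chosen after seeing the values) were held by Kcnip4, a potassium channel partner (489.5 and 45.3 in replicate 1 and replicate 2), and the methyltransferase Bhmt (2086 and 440.1), both higher in replicate 1. Higher in replicate 2 were the interferon-induced GTPase genes Iigp1 (115 and 634), Gbp3 (305 and 1334) and Gbp4 (140.2 and 645) and the proteoglycan Fmod (108 and 418). With 1 array on each side none of these was tested.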
